A study of Arabidopsis thaliana and Brassica rapa with 28 samples.

Results

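Arabidopsis seedlings that carried the auxin-resistance allele axr3-1 in the epidermis and stayed in white light were set against control seedlings moved to shade, so that genotype and light differed at the same time. The 8 libraries of these groups, 4 each, were chosen by their labels out of 28 in the series. The groups were CER6pro>>axr3-1::mCit seedlings in W light, and seedlings hemizygous for UAS::axr3-1::mCit, which hold the responder with no driver named for them, in shade of low red to far-red ratio. Both groups were whole seedlings of Arabidopsis thaliana, grown for 5 d in continuous W light and then kept in W or shade for 4 h. Control seedlings in W, and axr3-1 seedlings in shade, with 4 libraries each, served as reference levels. Neither the number of transgenic lines nor the origin of replicate libraries, from 1 culture or several, is given by the labels, so the p-values cover only the spread between these libraries, which may be technical. In RNA of whole seedlings, fewer cells of a type and less RNA per cell cannot be told apart.

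AXR3 encodes an Aux/IAA protein, a repressor of auxin-responsive transcription that auxin normally sends to degradation. The axr3-1 allele stabilises the protein, and the CER6 promoter, from a wax synthesis gene, drives expression in the epidermis. Shade lowers the ratio of red to far-red light, which inactivates phytochrome B and frees PHYTOCHROME INTERACTING FACTORS to switch on auxin synthesis genes, direct shade markers such as PIL1, HFR1 and ATHB2, and genes of cell elongation.

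AXR3 is the gene the transgene carries. AXR3 (AT1G04250, chromosome 1, 1136258 to 1138613 in TAIR10) stood at 113 FPKM in axr3-1 seedlings in W and at 37.1 FPKM in shaded controls, a called log2 ratio of 1.61 ± 0.20. FPKM is a read level corrected for transcript length and library size, and the authors gave 1 pooled value for each group. The error after each ± is a standard error recovered from the authors' test statistic. For some genes it is smaller than the authors' p-value implies, as described with the processing below. AXR3 was at 47.1 FPKM in controls in W and at 112 FPKM in axr3-1 seedlings in shade, and these values do not separate the endogenous gene from the transgene. CER6 itself, whose promoter drove the transgene, was at 180 FPKM against 197 FPKM in shaded controls and was not called.

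Between axr3-1 in W and the shaded controls, 806 of 20458 tested genes were called at a q under 0.05 in the authors' deposited table. Of these, 559 were higher in axr3-1 in W (2.73% of tested genes) and 247 were lower (1.21%). Counts of listed genes below are to be read beside these shares. The median log2 ratio over all tested genes was -0.01. In the controls alone, shade raised 253 of 20325 tested genes (1.24%) and lowered 327 (1.61%). In W alone, axr3-1 seedlings held 299 of 20470 tested genes above the controls (1.46%) and 143 below them (0.699%). The 3 comparisons share their libraries in pairs, and the log2 ratio of axr3-1 in W over shaded controls is the difference of the other two by construction.

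The 6 promoter windows printed here belong to shade-induced genes of different classes, shown so that their motifs can be compared, and each covers the 300 bases before the gene start of the RefSeq annotation on TAIR10.1. Capitals mark CACGTG (the G-box) and CACATG, both E-box forms, and TGTCTC and TGTCGG, forms of the auxin response element, on either strand. By the classes defined below, IAA19 and GH3.3 were at the shaded control level in axr3-1 seedlings in W, ACS4 went beyond it, ACS8 came part way, and IAA29 and HFR1 were not called against controls in W.
IAA19 (chr3:5263701-5264000, plus strand): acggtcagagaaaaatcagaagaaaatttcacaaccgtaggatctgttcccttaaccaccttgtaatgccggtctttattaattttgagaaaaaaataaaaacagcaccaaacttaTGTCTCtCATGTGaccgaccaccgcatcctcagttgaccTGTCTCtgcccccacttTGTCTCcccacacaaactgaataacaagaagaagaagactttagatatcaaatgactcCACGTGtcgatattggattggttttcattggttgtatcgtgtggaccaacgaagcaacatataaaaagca
GH3.3 (chr2:9866563-9866862, minus strand): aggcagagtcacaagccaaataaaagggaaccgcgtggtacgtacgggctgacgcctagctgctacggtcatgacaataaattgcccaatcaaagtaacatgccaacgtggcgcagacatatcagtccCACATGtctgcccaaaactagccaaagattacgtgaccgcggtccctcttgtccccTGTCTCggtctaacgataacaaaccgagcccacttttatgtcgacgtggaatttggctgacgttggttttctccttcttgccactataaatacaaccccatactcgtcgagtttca
ACS4 (chr2:9719595-9719894, minus strand): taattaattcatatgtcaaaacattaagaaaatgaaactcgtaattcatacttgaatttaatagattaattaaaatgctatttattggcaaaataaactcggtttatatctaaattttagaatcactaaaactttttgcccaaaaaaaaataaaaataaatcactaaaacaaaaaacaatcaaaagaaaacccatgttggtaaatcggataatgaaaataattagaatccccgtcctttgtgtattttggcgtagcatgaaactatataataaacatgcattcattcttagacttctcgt
ACS8 (chr4:17751779-17752078, plus strand): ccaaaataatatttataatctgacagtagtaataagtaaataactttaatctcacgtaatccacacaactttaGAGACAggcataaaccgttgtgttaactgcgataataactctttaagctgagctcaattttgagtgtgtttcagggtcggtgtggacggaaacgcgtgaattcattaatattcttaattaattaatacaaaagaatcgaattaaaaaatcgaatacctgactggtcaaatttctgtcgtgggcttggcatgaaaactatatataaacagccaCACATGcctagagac
IAA29 (chr4:15583032-15583331, plus strand): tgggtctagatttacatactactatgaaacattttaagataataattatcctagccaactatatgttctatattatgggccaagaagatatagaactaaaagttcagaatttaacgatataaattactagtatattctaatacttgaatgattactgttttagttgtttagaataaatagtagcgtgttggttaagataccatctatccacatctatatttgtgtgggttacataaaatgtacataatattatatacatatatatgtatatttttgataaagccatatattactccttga
HFR1 (chr1:467881-468180, minus strand): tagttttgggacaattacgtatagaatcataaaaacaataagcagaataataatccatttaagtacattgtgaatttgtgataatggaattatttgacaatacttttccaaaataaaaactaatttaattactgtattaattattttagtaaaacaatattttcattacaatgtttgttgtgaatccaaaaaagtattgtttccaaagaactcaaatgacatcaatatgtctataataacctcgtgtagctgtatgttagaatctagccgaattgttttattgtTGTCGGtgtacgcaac
The IAA19 window holds all but TGTCGG, with TGTCTC present 3 times, whereas the windows of ACS4 and IAA29 hold none of the motifs. A match is a string of letters and not a known binding site.

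To ask which shade-regulated genes axr3-1 seedlings already held at the shaded level in W, the 572 genes called between shaded and W controls and tested in the other tables were sorted by where axr3-1 in W lay between those control levels. A gene counted as at the shaded level when it was not called between axr3-1 in W and shaded controls, differed by less than 1.5-fold from the shaded controls and lay nearer to them than to the W controls. It counted as beyond when called on the far side of the shaded level, as short when called on the W side, and as unresolved otherwise. Among 246 shade-induced genes, 73 (29.7%) were at the shaded level, 8 were beyond it, 117 (47.6%) were short and 48 were unresolved. Among 326 shade-repressed genes, 53 (16.3%) were at the shaded level, 5 were beyond it, 198 (60.7%) were short and 70 were unresolved. Of the genes at the shaded level, 43 of the 73 induced and 30 of the 53 repressed were also called between the genotypes in W. The others, such as EXPA11, ORP4C, GA20OX1 and UGT74C1, were not. Of the 73 induced, 71 were higher in axr3-1 in shade than in axr3-1 in W and 2 lower, with a median log2 ratio of 0.66. Of the 53 repressed, 49 were lower there and 4 higher, with a median of -0.45. These counts go by sign and not by call. On a log2 scale on which W controls stand at 0 and shaded controls at 1, the median shade-induced gene stood at 0.34 in axr3-1 in W and the median shade-repressed gene at 0.11.

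**Figure D1:**
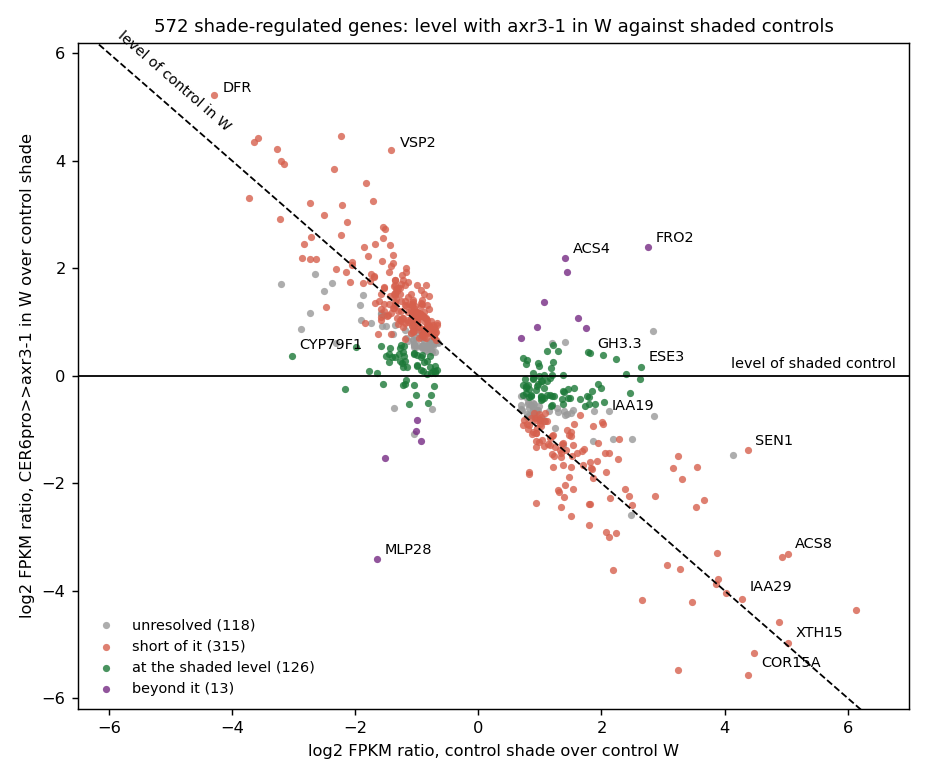
Each point is 1 of the 572 shade-regulated genes, with the log2 FPKM ratio of shaded over W controls on the x axis and that of axr3-1 in W over shaded controls on the y axis. The solid line is the shaded control level and the dashed line the W control level. Colours give the 4 classes, with 126 genes at the shaded level and 315 short of it. Because both axes contain the shaded controls, a downward slope is built into the plot.

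The strongest shade responses were mostly short of the shaded level. Of 24 genes induced over 8-fold in controls, 0 were at the shaded level and 23 were short of it, and the remaining one was unresolved. Of 10 genes repressed over 8-fold, 1 was at the shaded level and 8 were short. Among genes induced 2 to 4-fold, 43 of 120 were at the shaded level, and among genes repressed 2 to 4-fold, 31 of 167. Under 2-fold these counts were 23 of 71 and 20 of 124, and at 4 to 8-fold 7 of 31 and 1 of 25. The fixed 1.5-fold limit is harder to meet after a larger response, so part of this trend is built into the classes. From the smallest to the largest responses, the median position of induced genes was 0.34, 0.45, 0.47 and 0.10. For repressed genes it was 0.07, 0.14, 0.14 and -0.21. Of the 117 induced genes short of the level, 99 did not differ by a call from controls in W, 11 were called above them, part of the way to the shaded level, and 7 were called below them, away from it. Of the 198 repressed genes that were short, 179 did not differ by a call from controls in W, 3 were part way and 16 lay on the far side of the W level.

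**Figure D2:**
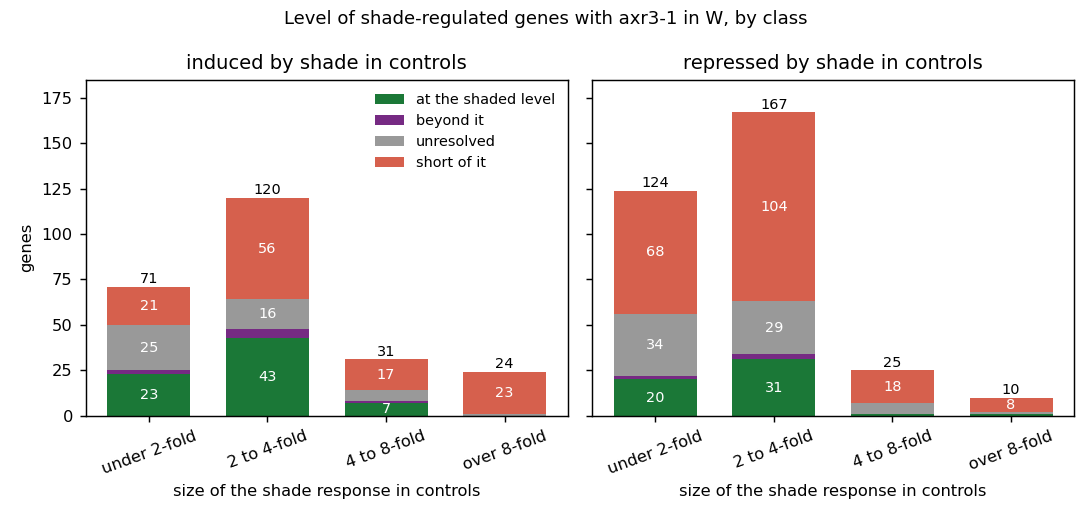
Bars give the number of shade-regulated genes, grouped by the size of the shade response in controls and stacked by class, with induced genes on the left and repressed genes on the right. The at-level share is 43 of 120 for genes induced 2 to 4-fold and 0 of 24 for genes induced over 8-fold. Because the fold limit is the same for all sizes, part of this difference is built into the classes.

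These shares depend on how the genes and limits are chosen. When the genes were taken from the calls between W controls and axr3-1 in shade instead, a comparison with 2.49% of tested genes higher and 2.26% lower by call, 254 of 499 induced genes (50.9%) and 165 of 459 repressed genes (35.9%) were at the shaded level. In that choice 15.2% of the induced and 29.0% of the repressed genes were short, so the order of the 2 classes turned. Induced and repressed there mean higher or lower in axr3-1 in shade than in W controls, while the classes still use the shaded controls. That choice also takes in genes that differ by genotype in W, and its genes need not respond to shade in controls. When the 95% interval of a gene had to lie on the shaded side of the midpoint between the control levels, 37 induced and 19 repressed genes were at the shaded level. With a narrower fold limit, 38 induced and 29 repressed genes were at it, and IAA19 (1.39-fold from shaded controls), GH3.3 (1.35-fold), HEC1 (1.31-fold), CYP79F1 (1.29-fold) and ORP4C (1.26-fold), all described below, were among the genes that were not.

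Of 15 listed shade markers tested, 10 were called lower in axr3-1 in W than in shaded controls and 0 higher, with a median log2 ratio of -1.62. Of the list, 9 were induced by shade in controls by call, and of these 6 were short of the shaded level, 1 was at it, 1 was unresolved and PIL1 could not be classed. PIL1, a bHLH factor among the earliest shade-induced genes, was at 0.894 FPKM in W controls, 37.3 in shaded controls, 0.895 in axr3-1 in W and 44.6 in axr3-1 in shade. PIL1 was not tested between the genotypes in W, so it is outside the 572 genes, and its log2 ratio of axr3-1 in W over shaded controls was -5.38 ± 0.33. Both genotypes were low in W and high in shade.

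HFR1 encodes an atypical bHLH protein that restrains PHYTOCHROME INTERACTING FACTORS. HFR1 was at 5.54 FPKM in W controls, 80.5 in shaded controls, 5.51 in axr3-1 in W and 82.2 in axr3-1 in shade, a log2 ratio of -3.87 ± 0.22 for axr3-1 in W over shaded controls. ATHB2, a homeodomain-leucine zipper factor of the shade response, was at 10.4, 87.4, 7.58 and 100.5 FPKM in the same order, a log2 ratio of -3.53 ± 0.21. FLP1, a relative of the flowering protein FPF1, was at 1.45, 23.6, 1.42 and 72.2 FPKM. None of these 3 genes was called between the genotypes in W, and both shade levels lay far above both W levels.

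PIF6, FHL and XTH15 were also called lower among the shade-induced markers, and ATHB4, HAT3 and PAR2 were called lower without a called shade response in controls. PAR1 had a log2 ratio of -3.20 ± 0.90 and was not called. HAT2 had a log2 ratio of 0.64 ± 0.19, HAT1 of -0.37 ± 0.22 and BBX28 of -0.64 ± 0.20, none of them called. The marker at the shaded level was PKS4, which encodes a phytochrome kinase substrate protein of the phototropism pathway. PKS4 was at 2.69 FPKM in W controls, 9.24 in shaded controls and 12.6 in axr3-1 in W, a log2 ratio of 0.45 ± 0.30 that placed it at the shaded level.

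Auxin-responsive genes were divided between all 4 classes. Of 19 tested early auxin response genes, 2 were called higher and 4 lower in axr3-1 in W than in shaded controls. The shares over all tested genes were 2.73% and 1.21%, and the list median log2 ratio was -0.43. IAA19, an auxin-induced Aux/IAA gene, was at 7.22 FPKM in W controls, 29.7 in shaded controls, 21.3 in axr3-1 in W and 64.2 in axr3-1 in shade. Its log2 ratio over shaded controls was -0.48 ± 0.22, not called, and its 95% interval ran from -0.91 to -0.05. IAA19 in axr3-1 in W lay 1.56 ± 0.26 above W controls on the log2 scale, which was called. In W, axr3-1 seedlings therefore held more IAA19 transcript than controls, and in shade the level was higher again.

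IAA29, another Aux/IAA gene, behaved otherwise. IAA29 was at 2.96 FPKM in W controls, 57.9 in shaded controls, 3.27 in axr3-1 in W and 45.3 in axr3-1 in shade, a log2 ratio of -4.15 ± 0.36 over shaded controls. SHY2 and IAA4 were called lower as well, at log2 ratios of -1.04 ± 0.19 and -0.72 ± 0.18. IAA5 was not called between shaded and W controls, but it was at 9.81 FPKM in axr3-1 in W against 1.86 in shaded controls and 1.36 in W controls, a log2 ratio of 2.40 ± 0.35. Members of this repressor family therefore lay above, at and far below the shaded control level in the same libraries.

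The GH3 genes encode enzymes that conjugate auxin to amino acids. GH3.3 was at 15.4 FPKM in W controls, 54.1 in shaded controls, 73.1 in axr3-1 in W and 155.9 in axr3-1 in shade, and its log2 ratio of 0.43 ± 0.22 over shaded controls was not called. GH3.6 was at 51.8 FPKM in shaded controls and 49.5 in axr3-1 in W, also at the shaded level. GH3.5 was unresolved, with a log2 ratio of -0.63 ± 0.21 that was not called. None of the 5 listed GH3 genes tested was called between axr3-1 in W and shaded controls, and GH3.4 was listed at 0 in these groups.

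The genes for ACC synthase, which makes the precursor of ethylene, went separate ways. ACS4 was at 1.33 FPKM in W controls, 3.54 in shaded controls, 16.2 in axr3-1 in W and 8.07 in axr3-1 in shade, a log2 ratio of 2.19 ± 0.31 over shaded controls that placed it beyond the shaded level. ACS8 was at 0.897 FPKM in W controls, 29.4 in shaded controls, 2.97 in axr3-1 in W and 35.1 in axr3-1 in shade. The ACS8 log2 ratio was -3.31 ± 0.28 over shaded controls and 1.73 ± 0.41 over W controls, both called, so it had moved about 0.34 of the way to the shaded level.

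Among SAUR genes, small auxin-induced genes linked to cell expansion, 4 of 22 tested were called higher and 0 lower, with a median log2 ratio of 0.36, against -0.01 over all tested genes. The 4 were SAUR14, SAUR15, SAUR9 and SAUR16. SAUR14 was at 42.0 FPKM in W controls, 14.1 in shaded controls and 62.3 in axr3-1 in W, and its log2 ratio of 0.57 ± 0.16 over W controls was not called. SAUR15 was at 3.55, 4.91 and 18.0 FPKM in the same order, a log2 ratio of 1.88 ± 0.27. Of the SAUR19 subfamily, none of the 6 listed members was called, with log2 ratios between -0.70 and 0.72. Members of that subfamily are near-identical copies whose short reads may be split between them.

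Auxin synthesis genes were likewise mixed. Of 19 tested synthesis and transport genes, 3 were called higher and 3 lower, against 2.73% and 1.21% of all tested genes. Their median log2 ratio was -0.17. TAA1 encodes the aminotransferase of the first step of auxin synthesis from tryptophan, and it was at 18.3 FPKM in W controls, 11.7 in shaded controls and 58.5 in axr3-1 in W, a log2 ratio of 2.32 ± 0.24. The YUC genes encode the monooxygenases of the next step. YUC8, the listed YUC gene with the highest FPKM in shaded controls, was at 2.52 FPKM in W controls, 23.8 in shaded controls and 8.47 in axr3-1 in W, a log2 ratio of -1.49 ± 0.24 and 0.54 of the way to the shaded level.

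YUC2 went beyond the shaded level, at 1.62 FPKM in W controls, 5.01 in shaded controls and 10.6 in axr3-1 in W, a log2 ratio of 1.08 ± 0.27. YUC5, with no called shade response in controls, was at 5.24 FPKM against 1.09 in shaded controls, a log2 ratio of 2.27 ± 0.41. YUC9 was unresolved at -0.68 ± 0.34. The auxin efflux carrier genes PIN3 and PIN4 were called lower, at log2 ratios of -0.76 ± 0.27 and -1.07 ± 0.27, and none of the other listed transport genes was called.

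**Figure D3:**
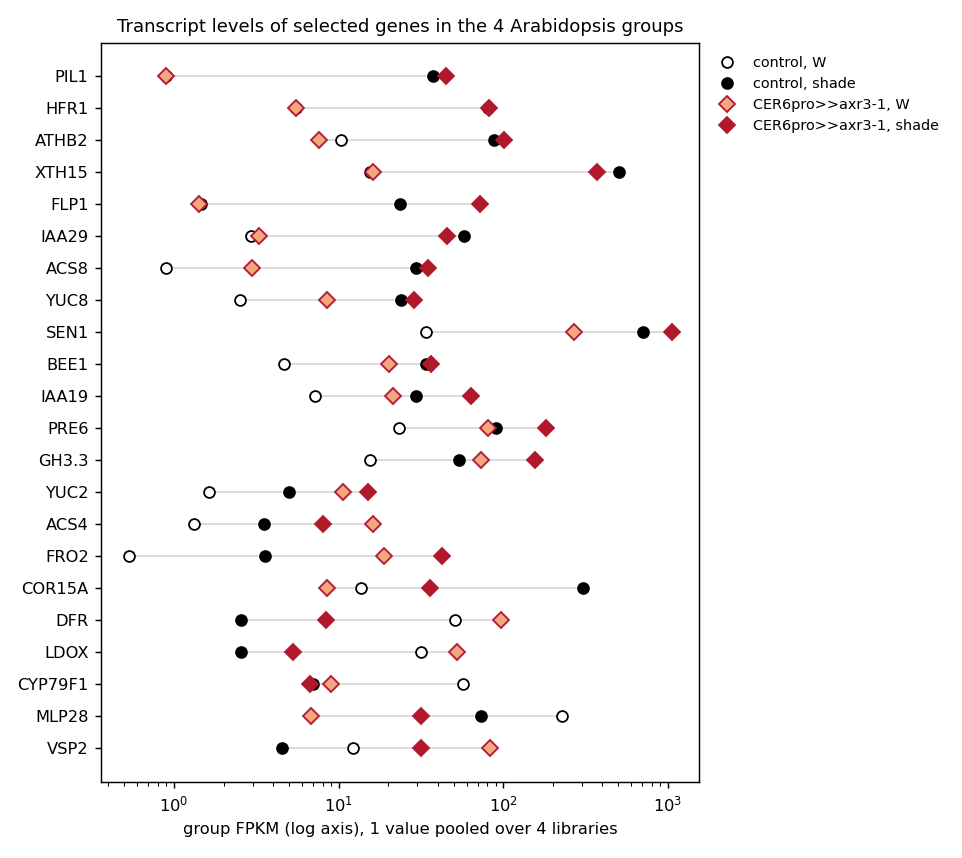
Points give the group FPKM on a log axis, 1 pooled value for each of the 4 Arabidopsis groups, for genes named in the text. For PIL1, HFR1, ATHB2, XTH15, FLP1 and IAA29 both W points lie far below both shade points, while for IAA19, PRE6 and GH3.3 the axr3-1 point in W lies near the shaded control, at 21.3 against 29.7 FPKM for IAA19.

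Brassinosteroid genes were called in both directions. Of 11 tested synthesis and inactivation genes, 2 were called higher and 2 lower, against 2.73% and 1.21% of all tested genes. Their median log2 ratio was 0.07, and none was called between shaded and W controls. DWF4 and ROT3, cytochrome P450 genes of brassinosteroid synthesis, were higher at log2 ratios of 1.07 ± 0.21 and 0.75 ± 0.25. CPD and BR6OX2, cytochrome P450 genes of the same pathway, were lower at -1.14 ± 0.26 and -0.96 ± 0.20. None of the 4 was called between the genotypes in W.

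Of 13 tested brassinosteroid response and growth bHLH genes, 1 was called, against 3.94% of all tested genes. It was BES1, a transcription factor of brassinosteroid signalling, at a log2 ratio of 0.87 ± 0.25. PRE6, a small bHLH protein that promotes elongation, was at 23.3 FPKM in W controls, 90.3 in shaded controls, 81.0 in axr3-1 in W and 181.7 in axr3-1 in shade. Its log2 ratio of -0.16 ± 0.14 had a 95% interval from -0.43 to 0.11, which placed axr3-1 in W within 1.5-fold of the shaded controls. BEE1, a bHLH gene induced by brassinosteroid, rose from 4.65 FPKM in W controls to 33.8 in shaded controls. It was at 20.1 FPKM in axr3-1 in W, and its log2 ratio of -0.75 ± 0.18 was not called and left it unresolved.

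Genes of the expanding cell wall were called lower more often than higher. Of 19 tested, 1 was called higher and 6 lower, against 2.73% and 1.21% of all tested genes. The list median log2 ratio was -0.22. XTH15, a xyloglucan-modifying enzyme listed with the shade markers, was at 15.5 FPKM in W controls, 506 in shaded controls, 16.2 in axr3-1 in W and 371 in axr3-1 in shade. Its log2 ratio was -4.97 ± 0.24. Its relatives XTH33 and TCH4 were also short of the shaded level, at -2.24 ± 0.33 and -1.05 ± 0.20, and so was the expansin EXPA3.

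XTH19 and the expansin EXPA11 were at the shaded level, with log2 ratios of 0.46 ± 0.20 and -0.18 ± 0.22. EXPA5, lowered by shade from 27.4 to 11.2 FPKM, was at 13.7 in axr3-1 in W and so was also at the shaded level. XTH4, XTH9 and EXPA8 had no called shade response but were lower in axr3-1 in W than in both control groups. For XTH4 the levels were 359 FPKM in W controls, 536 in shaded controls and 201 in axr3-1 in W. EXPA1 was the 1 called higher, at 0.88 ± 0.28.

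Of 16 tested gibberellin genes, 1 was called higher and 2 lower, against 2.73% and 1.21% of all tested genes. Their median log2 ratio was -0.03. GA20OX1, an enzyme that makes gibberellin precursors, was at 1.60 FPKM in W controls, 4.49 in shaded controls and 3.35 in axr3-1 in W and counted as at the shaded level, though it was not called above W controls. GA20OX3 and the inactivating enzyme GA2OX6 were lower, at -2.14 ± 0.52 and -1.90 ± 0.29. GA3OX1, which makes active gibberellin, was higher at 1.18 ± 0.26. Of 8 tested type-A response regulators of cytokinin, ARR6 and ARR4 were called higher and 0 lower, with a median of 0.71.

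Cold and abscisic acid response genes formed the list with the lowest median. Of 15 tested, 9 were called lower and 0 higher, with a median log2 ratio of -2.39, and all 8 that shade had induced in controls were short of the shaded level. COR15A, a chloroplast protein gene of cold acclimation, was at 13.7 FPKM in W controls, 306 in shaded controls, 8.47 in axr3-1 in W and 35.9 in axr3-1 in shade, a log2 ratio of -5.17 ± 0.38. COR15B, its neighbour, was at 20.6, 195, 4.35 and 33.3 FPKM in that order, a log2 ratio of -5.48 ± 0.31, and was called below W controls too. For both genes shaded controls were the high group, several-fold above axr3-1 seedlings in either light.

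GOLS3, a galactinol synthase, and CBF3, a transcription factor of the cold response, were lower at log2 ratios of -4.22 ± 0.33 and -4.18 ± 0.59. CBF3 was at 0.351 FPKM in axr3-1 in W, below 1 FPKM, where a fold depends on few fragments. RD29A was at 21.9 FPKM in W controls, 213 in shaded controls and 17.7 in axr3-1 in W. Of the 6 listed genes not called, RAB18, RD29B, KIN1 and LTI30 had log2 ratios between -0.26 and 0.76. COR47 had one of -0.93 ± 0.33 and CBF1 one of -4.22 ± 0.78. The CBF1 error is too small for an uncalled ratio of that size.

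Flavonoid genes formed the list with the highest median. Of 17 tested, 14 were called higher in axr3-1 in W than in shaded controls and 0 lower, with a median log2 ratio of 2.75, and all 12 that shade had repressed were short of the shaded level. DFR, an enzyme of anthocyanin synthesis, was at 50.7 FPKM in W controls, 2.57 in shaded controls, 96.8 in axr3-1 in W and 8.36 in axr3-1 in shade, a log2 ratio of 5.23 ± 0.30. DFR was also called above W controls, by 0.93 ± 0.22 on the log2 scale. LDOX, UF3GT and TT19, which act late in the anthocyanin pathway, were higher at log2 ratios of 4.36 ± 0.36, 4.43 ± 0.42 and 4.22 ± 0.29.

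CHS, the entry enzyme of the pathway, was at 294 FPKM in W controls, 101 in shaded controls and 319 in axr3-1 in W, a log2 ratio of 1.65 ± 0.30. The CHS locus in the authors' annotation spans chromosome 5 from 4488688 to 4500725 and so takes in neighbouring sequence. MYB75 and TT8, regulators of anthocyanin genes, were higher at 2.75 ± 0.37 and 3.14 ± 0.44. MYB12, MYB111 and MYB90 were the 3 not called.

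Of 20 tested jasmonate genes, 7 were called higher and 1 lower, with a median log2 ratio of 0.54. VSP2, a storage protein gene induced by jasmonate, was at 12.2 FPKM in W controls, 4.53 in shaded controls, 83.1 in axr3-1 in W and 31.7 in axr3-1 in shade, a log2 ratio of 4.20 ± 0.33. Its neighbour and close copy VSP1, not called for shade, was at 7.52, 6.58, 77.5 and 38.9 FPKM. The synthesis genes LOX3, LOX4 and AOC1 and the repressor genes JAZ6 and JAZ9 made up the rest of the genes called higher. ST2A, a sulfotransferase of hydroxyjasmonate, was the 1 called lower, at 8.47 FPKM in W controls, 258 in shaded controls and 24.9 in axr3-1 in W, part way to the shaded level.

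Of 11 tested aliphatic glucosinolate genes, 0 were called in the authors' deposited table between axr3-1 in W and shaded controls. With 3.94% of all tested genes called, 0 of 11 is near the overall share. An unadjusted Cuffdiff p under 0.05 was given for 5 of the 11, against 2381 of 20458 tested genes. The median log2 ratio of the list was 0.19. Of the 7 repressed by shade, 4 were at the shaded level and 3 unresolved. CYP79F1, which converts elongated methionine in the first committed step, was at 56.6 FPKM in W controls, 6.95 in shaded controls, 8.96 in axr3-1 in W and 6.68 in axr3-1 in shade, a log2 ratio of 0.37 ± 0.28. CYP79F1 had the strongest shade response of any shade-repressed gene at the shaded level, and W controls were the high group of the 4.

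CYP83A1, the enzyme of the next step, was at 85.1 FPKM in W controls, 37.4 in shaded controls and 33.4 in axr3-1 in W. SOT18, a sulfotransferase of the last step of the core pathway, was at 55.8, 28.2 and 32.2 FPKM, and UGT74C1 at 62.3, 25.8 and 36.9 FPKM. The transcription factor gene MYB29 was unresolved, at 10.7, 1.60 and 3.59 FPKM with a log2 ratio of 1.16 ± 0.34, and so were MYB28, at 0.45 ± 0.22, and the chain-elongation gene MAM1, at -0.60 ± 0.23. CYP79F1 has a close copy, CYP79F2, and counting between such copies is uncertain.

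Of 16 tested iron deficiency genes, 8 were called higher and 0 lower, with a median log2 ratio of 2.16, and 2 of the list, FRO2 and NAS4, were called between shaded and W controls. FRO2, the root ferric reductase, was the 1 gene of the list beyond a shade-induced level, at 0.530 FPKM in W controls, 3.6 in shaded controls, 18.8 in axr3-1 in W and 42.6 in axr3-1 in shade, a log2 ratio of 2.39 ± 0.34. The bHLH factor genes BHLH38, BHLH39 and BHLH101 were under 1 FPKM in both control groups and at 15.2, 16.1 and 9.12 FPKM in axr3-1 in W. IRT1, the iron transporter, was at 9.78 FPKM in shaded controls and 52.0 in axr3-1 in W but was not called, at 2.41 ± 0.55. The IRT1 error is likewise too small for an uncalled ratio of that size.

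Other genes at the shaded level with strong shade responses were ESE3, an ethylene-response-factor gene, and HEC1, a bHLH gene. ESE3 was at 4.60 FPKM in W controls, 28.7 in shaded controls and 32.3 in axr3-1 in W, and HEC1 at 0.990, 4.03 and 5.26 FPKM. ORP4C, a gene of the oxysterol-binding family, was at 10.2 FPKM in shaded controls and 8.12 in axr3-1 in W, over a locus that the authors' annotation merges with its neighbour. Other genes beyond the shaded level included MAKR6 and BT1, at log2 ratios of 0.89 ± 0.19 and 1.38 ± 0.22. Among repressed genes, MLP28, of the major latex protein family, was beyond it by the widest margin, at 228 FPKM in W controls, 73.1 in shaded controls and 6.84 in axr3-1 in W, a log2 ratio of -3.42 ± 0.31. The GDSL lipase gene LTL1 was beyond it at -0.82 ± 0.20.

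SEN1, a dark- and senescence-induced gene, had the highest fractional position of the induced genes called part way, although others with smaller shade responses had a smaller log2 gap to the shaded level. SEN1 was at 34.1 FPKM in W controls, 711 in shaded controls, 271 in axr3-1 in W and 1063 in axr3-1 in shade, a log2 ratio of -1.39 ± 0.25 over shaded controls and 0.68 of the way to them. P1R3 and BBX17 were not called and were unresolved, at -1.48 ± 0.33 and -2.59 ± 0.66. The BBX17 locus in the authors' annotation extends past the RefSeq gene at both ends and so takes in neighbouring sequence. Of the 126 genes at the shaded level, 107 had a 95% interval within 2-fold of the shaded controls, and for the other 19 the interval reached past 2-fold.

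Of the 806 genes called between axr3-1 in W and shaded controls, 473 were not called between the shaded and W controls, 353 of them higher and 120 lower. Among them, 131 of the higher and 51 of the lower genes were also called in the same direction between axr3-1 and controls in W, a comparison that shares the axr3-1 libraries. The rises with the largest ratios included GPX7, a glutathione peroxidase gene, at 22.4 FPKM against 3.01 in shaded controls and 6.78 in W controls. BGLU18, a beta-glucosidase gene, was at 262 FPKM against 41.8 and 42.2, a log2 ratio of 2.65 ± 0.32, with both control groups alike. The falls included HB28, a zinc finger homeodomain gene, at 2.40 FPKM against 13.6 and 7.88, and GRF5, a growth-regulating factor gene, at 4.26 FPKM against 11.1 and 8.88.

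Photosynthesis genes were not called in either direction. Of 18 tested, 0 were called in the authors' deposited table, 0 had an unadjusted p under 0.05 there, and the median log2 ratio was 0.18. With 3.94% of all tested genes called, 0 of 18 is near the overall share. Errors were wide for some members, such as RBCS1A at 0.36 ± 1.23 and LHCB1.1 at 0.13 ± 1.07. Cuticle genes, which act in the epidermis, had 0 called higher and 2 lower of 22, against 2.73% and 1.21% of all tested genes. The 2 were KCS1 and DCR, both also lower than in W controls, and the list median was -0.06. Of 10 clock genes, GI alone was called, lower at -1.16 ± 0.23, where 3.94% of all tested genes were called.

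**Figure D4:**
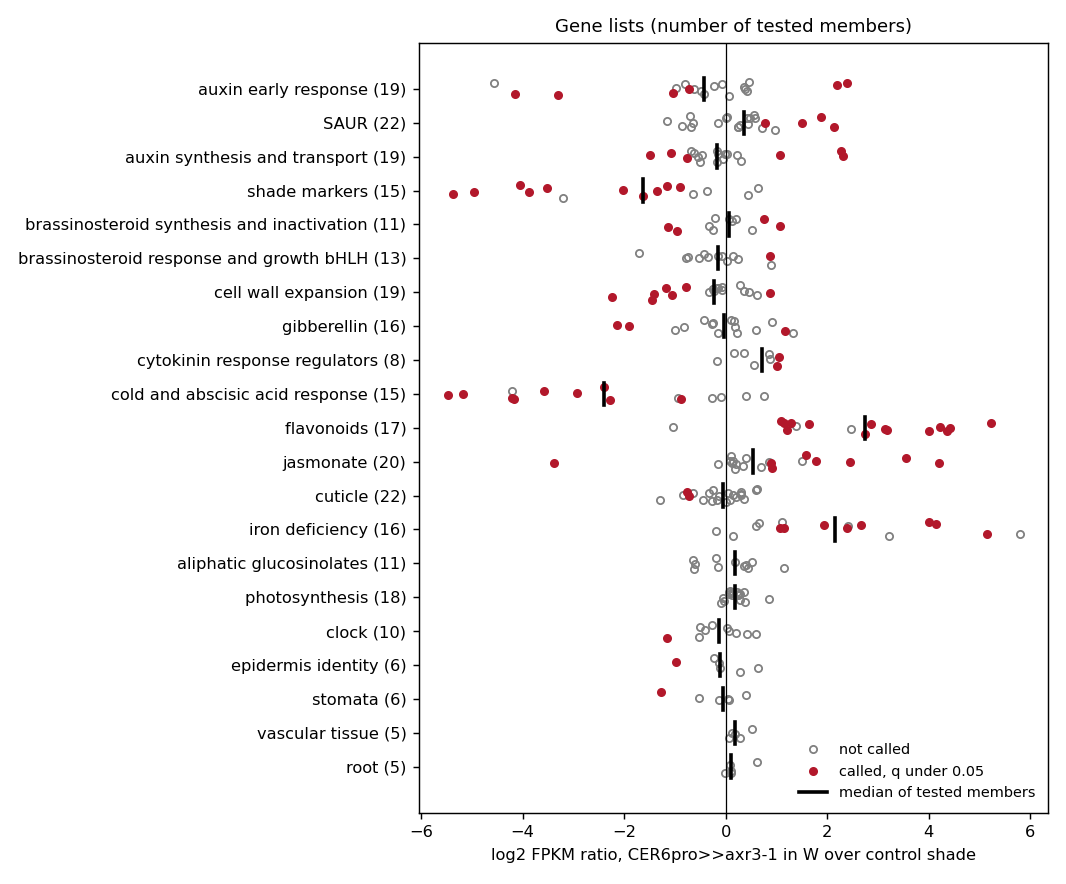
Each circle is a tested list member at its log2 FPKM ratio of axr3-1 in W over shaded controls, filled where called at a q under 0.05 in the authors' deposited table, and the bar is the median of the list, whose number of tested members is in brackets. Flavonoids (median 2.75) and iron deficiency genes (2.16) lie to the right, and cold and abscisic acid genes (-2.39) and shade markers (-1.62) to the left.

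Markers of the tissues that a whole seedling holds were all present at 1 FPKM or more in both groups. Summed over 4 markers, green tissue stood at 28936 FPKM in axr3-1 in W and 22467 in shaded controls. Most of both sums was RBCS1A, at 20076 against 15647 FPKM, a log2 ratio of 0.36 ± 1.23. The 5 vascular and 5 root markers summed to 134 against 114 and 90.6 against 85.1. None of the green tissue, vascular or root markers was called. The 4 epidermal markers summed to 273 against 467 FPKM, carried by PDF1, a proline-rich protein gene of the outer cell layer, which was at 202 against 394 and was called. The other 3, ATML1, PDF2 and HDG2, were not called. The 3 guard cell markers summed to 27.0 against 43.0 FPKM, carried by the channel gene KAT1, called lower at -1.27 ± 0.31. What part these epidermal and guard cell levels had in the cuticle and cell wall results was not tested.

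In the same promoter windows over all 27437 annotated protein-coding genes, 7.09% held CACGTG, 13.1% CACATG, 13.0% TGTCTC and 4.91% TGTCGG. Windows were read for 71 of the 73 induced genes at the shaded level, of which 8.45% held CACGTG, 28.2% CACATG, 12.7% TGTCTC and 5.63% TGTCGG. For 114 of the 117 induced genes that were short, the shares were 11.4%, 18.4%, 11.4% and 9.65%. For the repressed genes, CACATG was in 17.6% of 51 windows at the shaded level and 14.0% of 193 that were short. These shares describe letters in a window and were not tested.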

How the data were processed

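Polyadenylated RNA of whole seedlings was sequenced from stranded libraries as 50 bp single-end reads, per the labels' protocols. The submitters' processing notes name CASAVA 1.8.2, TopHat2 2.0.9, Bowtie2 2.1.0, Cufflinks, Cuffdiff and the build TAIR10. FPKM values, 1 per group over 4 libraries, were computed by the authors with Cuffdiff, per the file headers. The authors' Cuffdiff statistic for a pair of groups is deposited as a signed score. Each p-value and q-value is the authors' own, and the smallest p was 5e-05 and the smallest q 0.00309. The depth of single libraries is unknown, and the spread within a group is seen only through the authors' statistic.

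A gene was called at q under 0.05 among genes marked as tested. Log2 ratios were computed from FPKM without a pseudocount. The standard error is the ratio divided by the authors' statistic, times a factor (0.560 for axr3-1 in W against shaded controls) set from p between 0.001 and 0.5. In 1.71% of genes the statistic was over 2 times what the factor gives, and their errors are too small. Other genes depart less, some with errors too small and some with errors slightly too large. P1R3, at -1.48 ± 0.33, had a Cuffdiff p of 0.0027 and BEE1, at -0.75 ± 0.18, one of 0.0021. Both errors are smaller than those p-values imply. The same holds for IAA5, SAUR15 and CBF3, each with a Cuffdiff p of 0.0001. Uncalled genes whose ratios lie many errors from 0, such as IRT1 and CBF1, also have errors that are too small. The 95% intervals use these errors. BHLH101, at 4.00 ± 0.45, had a Cuffdiff p of 0.00095. Its error is also smaller than that p-value implies, so its interval is too narrow. Of 580 genes called between shaded and W controls, 572 were classed. The other 8 were IAA34, PIL1, RLP33, BBX23, GA20OX3, GRF7, PORA and XLOC_021463, each untested in a table needed. XLOC_021463 was at 247 FPKM in W controls and listed at 0 in the other groups.

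The genes named are key genes of 21 lists, up to 4 called members of each list with the largest ratios, the 8 largest shade responses of each class, and the 8 largest rises and falls outside the shade calls, not all of which are described. Further list members are named to complete counts and were chosen after their values were seen. The comparison and lists were chosen with earlier results of these data known. Of 306 listed genes, 304 were in the tables. Calculations used Python 3.11.15, pandas 2.3.3, numpy 2.4.6 and scipy 1.17.1, and figures matplotlib 3.10.9. Alternatives were a stricter q, a minimum fold, other fold limits, pseudocounts, an FPKM minimum, other choices of genes and centring on the median gene.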

Additional observations from a re-analysis of the deposited data

How the results depend on the processing

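No paired analysis was possible because the tables give 1 pooled value per group, and for the same reason leaving out single libraries was not run. The deposited fold column was not used as an alternative, since some of its cells hold spreadsheet errors. No named gene reversed direction under the pseudocounts or centring, the settings run for single genes. The order of the classes did turn when genes were chosen, and named induced or repressed, by axr3-1 in shade against W controls. Of induced genes 50.9% were then at the level and 15.2% short, against 29.7% and 47.6%. Of repressed genes 35.9% were at the level and 29.0% short, against 16.3% and 60.7%. At q under 0.01, 163 genes were lower in axr3-1 in W. With at least 2-fold, 516 genes were called, 360 higher and 156 lower. For the classes, q under 0.01 in every table left 5 induced genes beyond the shaded level, and 33 repressed genes at it and 123 short. A narrower fold limit for the shaded level put 38 induced and 29 repressed genes at the level and left 83 induced unresolved. Genes chosen from W controls against axr3-1 in shade gave 254 induced at the level, 77 beyond, 76 short and 92 unresolved, and 165 repressed at it, 24 beyond and 137 unresolved. A shade response of at least 2-fold left 23 induced unresolved, and 33 repressed at the level, 3 beyond, 130 short and 36 unresolved. The 95% interval against the midpoint put 37 induced and 19 repressed genes at the level, with 119 and 149 unresolved. Genes called in both comparisons with W controls, an alternative chosen after seeing the data, left 74 induced short and 30 unresolved, and 126 repressed short. Each of these settings by construction changes which genes enter or how they are sorted, and beyond that the cause was not tested. A pseudocount of 1 moved the ratios of 27 of the 91 named genes by more than 1 standard error, all toward 0, and a pseudocount of 0.1 or centring moved none. Levels under 1 FPKM limit the precision of genes such as CBF3, PIL1 and the iron-response bHLH genes.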

Other observations

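Beyond the listed glucosinolate genes, several genes linked to sulfur assimilation or glucosinolate synthesis were among the 53 shade-repressed genes at the shaded level. They were picked out here after their values were seen, and members of these pathways in other classes were not counted. GSTF11 and GSTU20, glutathione transferase genes linked to glucosinolate synthesis, had log2 ratios of axr3-1 in W over shaded controls of 0.05 and -0.17, where shade had lowered them by log2 ratios of -1.65 and -1.22. BAT5, a transporter gene of methionine chain elongation, stood at 0.17 after a shade response of -1.16. APR1, which reduces activated sulfate, stood at 0.58 after -1.25, just inside the 1.5-fold limit. APS3, a sulfurylase gene, stood at 0.10 after -0.94. GGP1, which processes glutathione conjugates in this pathway, stood at 0.36 after -0.78. Under the narrower fold limit APR1 and GGP1 did not count as at the shaded level. These ratios describe single genes, and no test was made of the group.

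Among the 73 shade-induced genes at the shaded level, also picked after their values were seen, were the growth regulator genes ARGOS and ARL. Their log2 ratios were -0.43 and -0.43 over shaded controls after shade responses of 1.65 and 1.03, outside the narrower fold limit. PIF3, a phytochrome-interacting bHLH gene, stood at 0.23 after 0.97, and MAX2, the F-box gene of strigolactone signalling, at -0.19 after 0.77.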
